A study of Homo sapiens with 6 samples.

Results

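The genes described here are those that pemetrexed acts on or depends on: its targets TYMS, GART and ATIC, the folate carriers SLC19A1 and SLC46A1, the enzymes FPGS and GGH that lengthen and shorten its glutamate tail, and the cytosolic one-carbon enzymes MTHFD1 and SHMT1. They were taken by name from a table of FPKM values (fragments per unit of gene length and per unit of mapped fragments, a level that allows for gene length and depth), 9 of its 58735 genes. The rule itself uses no measured value, but the genes were picked with earlier results of these data known. All 9 had a mean of at least 1 FPKM over the 6 libraries and so were among the 13150 genes tested. SLC46A1 passed that minimum only narrowly, with a mean of 1.01 FPKM.

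The cells were PC9-BrM3, a brain-seeking derivative of the human lung adenocarcinoma line PC9, obtained by repeated passage through the left ventricle and brain of immunodeficient mice. 3 libraries came from BrM3-shAKR1B10, in which a lentiviral shRNA (vector 1 of the study) was aimed at AKR1B10, an aldo-keto reductase, and 3 from BrM3-shNC, which carried a negative control shRNA and whose genotype is labelled WT. All were grown in RPMI1640 with serum, the treatment is labelled as routine culture with no pemetrexed named, and a single shRNA against AKR1B10 was sequenced. The labels do not say whether the replicates were separate cultures, so the p-values below measure the spread between these libraries, which may be technical. Each library had from 16964504 to 18709028 reads assigned to genes. AKR1B10 stood at 108.5 ± 1.52 FPKM in BrM3-shAKR1B10 and 782 ± 14.6 in BrM3-shNC (n = 3 libraries each, mean ± SD), or -2.85 as a log2 fold change. Of 9 epithelial and lung adenocarcinoma markers 6 reached 1 FPKM, with a summed level of 3168 to 3254 against 2987 to 3349, whereas the lung lineage markers NKX2-1, NAPSA and SFTPB stayed below 1. The 5 fibroblast markers summed to 1.20 to 1.37 FPKM in BrM3-shAKR1B10 and 2.03 to 2.08 in BrM3-shNC, with COL1A2 and DCN at 0, and COL1A1 was lower (log2 fold change -0.67, adjusted p 0.00319, limma). The 3 endothelial markers summed to 2.10 to 2.37 against 1.52 to 1.79, and CDH5 was higher (0.65, adjusted p 0.00390, limma). PECAM1 went the other way without overlap, at a mean of 0.272 against 0.438 FPKM, and VWF overlapped between groups. Both were below 1 FPKM and not tested. The 3 immune markers summed to 0.0556 to 0.139 against 0.192 to 0.265 FPKM, and the 5 neural and glial markers to 0.0491 to 0.0710 against 0.0704 to 0.202. The part of these markers in the results was not tested. BrM3-shNC replicate 1 stood apart from its fellows, with a chi-square per gene of 5.73 and 6.43 against them where the other pairs within a group gave 2.68 to 2.97.

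Folates carry single carbon units for the synthesis of purines and thymidylate, the building blocks of DNA, and antifolate drugs block the enzymes that use them. Pemetrexed enters cells by the folate carriers, is given extra glutamates by FPGS, which hold it in the cell and strengthen its binding, and loses them again to GGH in the lysosome. Thymidylate synthase (TYMS) is its principal target, with weaker action on the purine enzymes encoded by GART and ATIC, and the genes of this pathway are used most in cells that are copying their DNA.

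With AKR1B10 knocked down, 6 of the 9 genes fell, none rose and 3 did not pass, a call being an adjusted p of less than 0.05 (limma, Benjamini-Hochberg adjustment over all genes tested). Over all 13150 genes tested 23.1% were lower, 19.4% higher and 42.5% changed in either direction, so a call alone was common. The falls in TYMS and GGH were the large ones, to 52.5% and 58.3% of BrM3-shNC. Only these 2 also met the study's fold limit, an absolute log2 fold change above 0.5, which 7.45% of the genes tested met downward, 5.83% upward and 13.3% in all. The groups did not overlap for the 6 genes called lower and overlapped for ATIC, FPGS and SLC46A1. Of all genes tested 29.2% lay lower without overlap, 25.5% higher and 54.7% either way. The median log2 fold change of the 9 was -0.23, beside -0.01 over all genes tested. In bulk RNA, fewer cells at a given stage of the cycle and less RNA per cell cannot be told apart.

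The start regions of 3 of the genes are printed to show a sequence feature that some of them hold, a word of the kind bound by E2F, the factor family that switches on genes for DNA synthesis. RefSeq windows from 250 bases before to 50 bases after a gene's start (GRCh38.p14) were searched on both strands for TTTGGCGC or TTTCCCGC or TTTCGCGC or TTTGCCGC as the E2F words, for CCAAT and for the GC box GGGCGG. In the stretches printed no word of 1 kind overlapped one of another kind, while neighbouring GC boxes of FPGS shared single bases. 8 of the 9 genes had at least 1 window, 15 windows in all, and GGH had none. E2F words stood in 1 window each of TYMS, GART and SLC19A1, that is in 3 of the 15 windows, beside 3.31% of 35116 windows over all genes. The E box stood in 4 windows, those of ATIC, FPGS, MTHFD1 and SLC19A1, beside 7.26% of all windows. The NRF1 word stood in 1 window, of MTHFD1, beside 1.24%. The 3 stretches run 5′ to 3′ on the gene's strand up to the RefSeq start, or for TYMS to shortly before it, with E2F words and CCAAT on either strand in capitals. TYMS lies at chr18:657403-657623 on the plus strand, SLC19A1 at chr21:45541847-45542096 on the minus strand, and FPGS, which did not pass the test, at chr9:127802608-127802857 on the plus strand.
TYMS: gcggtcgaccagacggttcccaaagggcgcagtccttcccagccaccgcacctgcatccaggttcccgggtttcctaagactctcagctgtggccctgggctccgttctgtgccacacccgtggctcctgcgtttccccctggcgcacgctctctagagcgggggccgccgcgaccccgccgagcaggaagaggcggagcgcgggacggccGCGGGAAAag
SLC19A1: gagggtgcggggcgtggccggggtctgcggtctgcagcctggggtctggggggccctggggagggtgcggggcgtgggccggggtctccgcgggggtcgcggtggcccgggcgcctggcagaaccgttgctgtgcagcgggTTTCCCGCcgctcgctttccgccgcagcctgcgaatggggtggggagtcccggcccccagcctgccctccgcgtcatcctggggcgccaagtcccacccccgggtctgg
FPGS: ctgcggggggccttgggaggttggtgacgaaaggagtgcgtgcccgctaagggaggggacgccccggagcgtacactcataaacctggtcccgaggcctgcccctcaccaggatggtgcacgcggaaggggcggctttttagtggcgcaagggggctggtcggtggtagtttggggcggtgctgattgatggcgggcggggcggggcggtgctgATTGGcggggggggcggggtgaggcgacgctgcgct
The TYMS word reads TTTCCCGC on the minus strand and begins at base 212 of its window, and the same word on the plus strand begins at base 142 of the SLC19A1 window. No E2F word stood in the windows of ATIC, FPGS and SLC46A1, which did not pass, nor in those of MTHFD1 and SHMT1, which were lower. The FPGS window from which the stretch was taken had 9 GC boxes and 2 CCAAT, 1 CCAAT being within the stretch, and the last of the 3 FPGS windows had 1 GC box and 0 CCAAT, against shares of 45.0% and 34.6% of all windows with at least 1. GART had its E2F word in only 1 of 3 windows, chr21:33542068-33542367, starting at base 6, and CCAAT in all of them, with 3 copies in chr21:33542843-33543142. SLC19A1 also had several windows, with its E2F word in only 1 of them, chr21:45541797-45542096. Windows of the same gene can overlap, as chr21:33542840-33543139 and chr21:33542843-33543142 of GART do. A match is a run of letters and not a measured binding site.

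TYMS (ENSG00000176890, chromosome 18, 657604 to 673578, plus strand, GRCh38) encodes thymidylate synthase, which methylates dUMP to dTMP with a folate as the donor. Its FPKM values were 7.676, 6.997 and 7.191 in BrM3-shAKR1B10 and 11.8, 14.8 and 15.1 in BrM3-shNC. Every knockdown library lay below every control library, and BrM3-shNC replicate 1 was the lowest of the controls. The means were 7.29 ± 0.350 and 13.9 ± 1.80 FPKM (SD, n = 3 each), and the log2 fold change of -0.91 (SE 0.0973) passed with an adjusted p of 0.000569 (limma). The 95% interval placed the knockdown level at 45.2% to 62.3% of control, on 312 to 679 reads per library. Among the genes tested, 2.27% had a lower log2 fold change.

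GART (ENSG00000159131, chromosome 21, 33503931 to 33543491, minus strand) encodes the enzyme with 3 activities in purine synthesis, among them the folate-dependent formyl transfer to GAR that pemetrexed blocks. It stood at 11.3, 12.0 and 11.4 FPKM in the knockdown libraries and 15.3, 13.8 and 15.2 in the controls. The groups were apart, by less than for TYMS. The means of 11.6 ± 0.394 and 14.8 ± 0.820 gave a log2 fold change of -0.35 (SE 0.0521, adjusted p 0.00225, limma), or 71.8% to 85.4% of control. ATIC (ENSG00000138363, chromosome 2, 215311817 to 215349773, plus strand) makes the second folate-dependent formyl transfer of the same pathway and closes the ring to IMP. At 73.2, 73.1 and 72.1 FPKM against 75.8, 74.9 and 71.4 it was the most abundant of the 9 genes in both groups, and its groups overlapped. Its log2 fold change of -0.02 did not pass (adjusted p 0.607, limma), and the 95% interval of 93.2% to 103.9% of control was the narrowest of the 9 genes.

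The targets were also compared within each library. Both ratios given here were formed after the values had been seen. The ratio of TYMS to ATIC was 0.105, 0.0957 and 0.0998 in the knockdown libraries and 0.156, 0.198 and 0.211 in the controls. On the log2 scale it differed by -0.90 between the groups. The ratio of GART to ATIC was 0.154, 0.164 and 0.158 against 0.202, 0.185 and 0.214, a log2 difference of -0.33. Neither ratio overlapped between groups, and each had an exact two-sided permutation p of 0.10, which is the smallest that 3 against 3 can give.

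**Figure D1:**
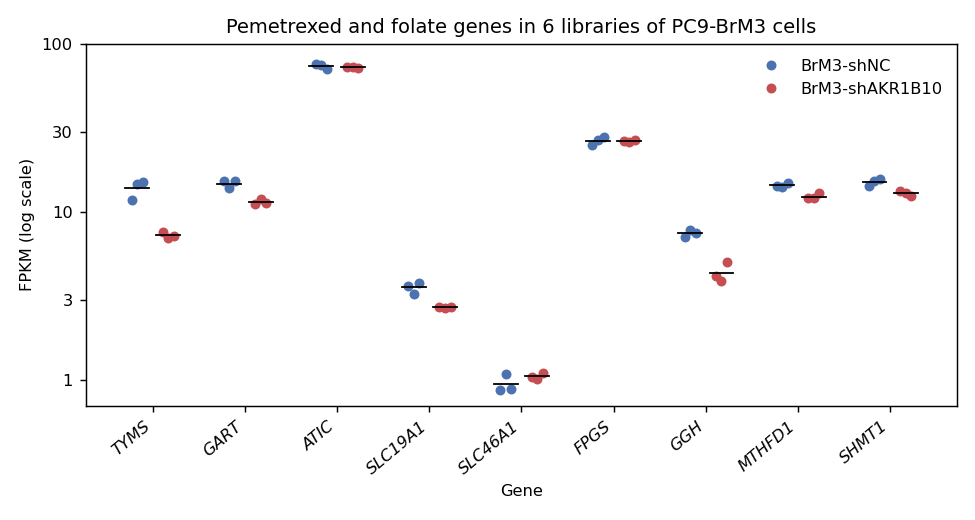
FPKM on a log scale for the 9 genes in each of the 6 libraries, in blue for BrM3-shNC and red for BrM3-shAKR1B10, with a line at each group's mean. The knockdown points sit below the control points for TYMS, GART, SLC19A1, GGH, MTHFD1 and SHMT1 and mix with them for ATIC, FPGS and SLC46A1.

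SLC19A1 (ENSG00000173638, chromosome 21, 45493572 to 45544411, minus strand) encodes the reduced folate carrier, the main route of reduced folates and antifolates into most cells. It stood at 2.74, 2.71 and 2.74 FPKM in BrM3-shAKR1B10 and 3.65, 3.27 and 3.81 in BrM3-shNC. The knockdown libraries were nearly equal and all below the controls. The means of 2.73 ± 0.0134 and 3.58 ± 0.276 FPKM gave a log2 fold change of -0.37 (SE 0.0721, adjusted p 0.00672, limma), or 68.5% to 86.9% of control. SLC46A1 (ENSG00000076351, chromosome 17, 28394756 to 28407197, minus strand) encodes the proton-coupled folate transporter, which works best at acid pH and carries pemetrexed well. Its values were 1.05, 1.02 and 1.12 FPKM against 0.883, 1.09 and 0.895, the lowest of the 9 genes, and the groups overlapped. The log2 fold change of 0.14 (SE 0.17, adjusted p 0.529, limma) did not pass, and on 127 to 155 reads a library the interval was as wide as 83.4% to 146.5% of control. A rise or fall of that order was not detectable at this depth and number of libraries.

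FPGS (ENSG00000136877, chromosome 9, 127794597 to 127814327, plus strand), folylpolyglutamate synthase, adds the glutamates that trap folates and pemetrexed in the cell. It stood at 26.5, 26.0 and 26.9 FPKM in the knockdown libraries and 24.97, 27.02 and 27.93 in the controls. The knockdown values lay inside the range of the controls. The log2 fold change was -0.01 (SE 0.0474, adjusted p 0.913, limma), with an interval of 92.0% to 107.6% of control. Its sign turned under TPM and median-of-ratios scaling. GGH (ENSG00000137563, chromosome 8, 63015079 to 63039171, minus strand), gamma-glutamyl hydrolase, removes those glutamates. Its values were 4.16, 3.91 and 5.03 FPKM against 7.09, 7.80 and 7.56, so that the highest knockdown library was still below the lowest control. The means of 4.37 ± 0.586 and 7.48 ± 0.365 FPKM gave a log2 fold change of -0.77 (SE 0.0964, adjusted p 0.00110, limma), or 49.9% to 68.8% of control, on 221 to 432 reads.

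The ratio of FPGS to GGH mRNA was higher in each knockdown library than in any control. It was 6.37, 6.65 and 5.36 in BrM3-shAKR1B10 and 3.52, 3.46 and 3.69 in BrM3-shNC, a mean of 6.13 ± 0.681 against 3.56 ± 0.1198 (SD, n = 3 each). The log2 difference was 0.78, with no overlap between groups and an exact two-sided permutation p of 0.10, again the smallest possible. These are ratios of mRNA per length, and neither enzyme activity nor polyglutamate was measured in these libraries.

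**Figure D2:**
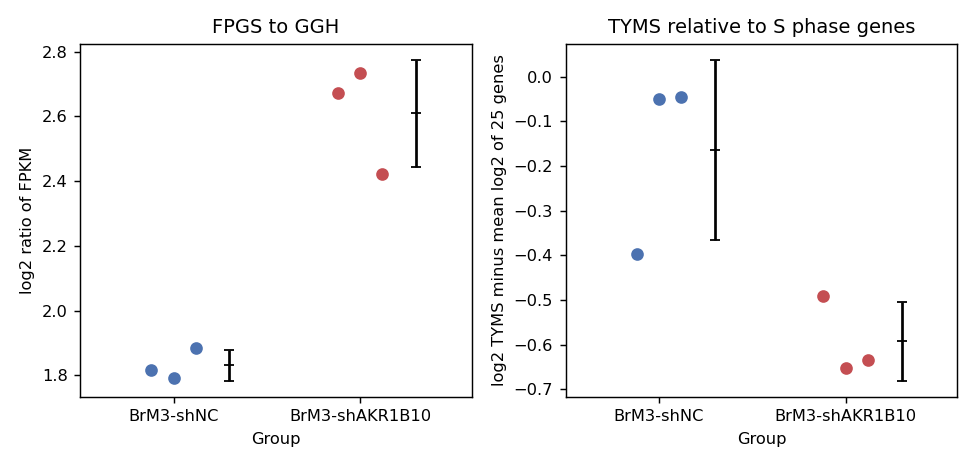
Ratios within each library, 1 point per library with the groups on the x axis: FPGS to GGH, and TYMS relative to the mean of the S phase genes, both on the log2 scale, with bars for the mean and SD of each group (n = 3). Log2 FPGS to GGH runs from 2.42 to 2.73 in BrM3-shAKR1B10 and from 1.79 to 1.89 in BrM3-shNC, while relative to the S phase genes TYMS in BrM3-shNC replicate 1 sits close to the knockdown libraries.

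MTHFD1 (ENSG00000100714, chromosome 14, 64388031 to 64463457, plus strand) makes formyl- and methylene-tetrahydrofolate, the donors used by GART, ATIC and TYMS. It stood at 12.1, 12.2 and 12.9 FPKM against 14.3, 14.2 and 14.9. The groups were apart by a small margin, with a log2 fold change of -0.22 (SE 0.0418, adjusted p 0.00640, limma) and 80.1% to 92.0% of control. SHMT1 (ENSG00000176974, chromosome 17, 18327860 to 18363563, minus strand) takes the carbon unit from serine in the cytosol. Its values were 13.4, 12.9 and 12.4 FPKM against 14.3, 15.4 and 15.8, and its log2 fold change of -0.23 (SE 0.0519, adjusted p 0.0131, limma) corresponded to 78.4% to 93.1% of control.

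The order of the levels was nearly the same in both groups. In BrM3-shNC it ran ATIC, FPGS, SHMT1, GART, MTHFD1, TYMS, GGH, SLC19A1 and SLC46A1. The ranges over libraries overlapped for the neighbours SHMT1 and GART, GART and MTHFD1, and MTHFD1 and TYMS, so these were not separated. In BrM3-shAKR1B10 the ranges overlapped for SHMT1 and MTHFD1 alone, GART lay below MTHFD1, and TYMS lay below both without overlap. Exon bases shared with other genes, 46.6% for TYMS and 0% for ATIC, may shift a gene's level against another's. The place of TYMS in this order and the size of the TYMS to ATIC ratio carry that limit.

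**Figure D3:**
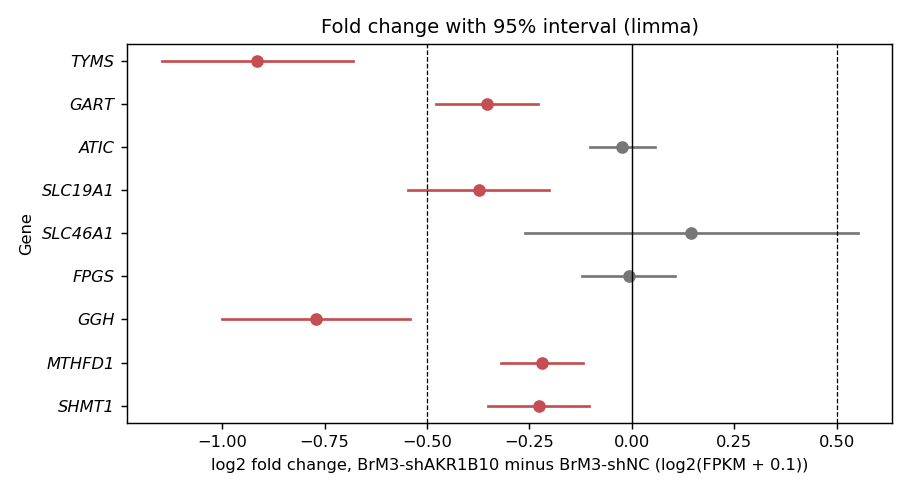
Log2 fold change of each of the 9 genes, BrM3-shAKR1B10 minus BrM3-shNC on log2(FPKM + 0.1), with the 95% interval from limma as bars. The intervals of TYMS, GGH, SLC19A1, GART, SHMT1 and MTHFD1 lie wholly below 0 and those of ATIC, FPGS and SLC46A1 cross it.

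Some of these genes share exon sequence with a gene on the opposite strand, and the library protocol describes no step that marks strand, so reads in shared exons cannot be told apart. Of the 2470 exon bases of TYMS, 46.6% are shared, 967 bases with ENOSF1 and 183 with the long noncoding RNA TYMSOS. ENOSF1 itself was higher in the knockdown, 2.81, 3.26 and 3.09 FPKM against 2.24, 2.29 and 2.23 (log2 fold change 0.42, adjusted p 0.00556, limma), the direction opposite to TYMS. TYMSOS had a log2 fold change of -0.63 that did not pass (adjusted p 0.0763, limma), on 18 to 43 reads. SLC46A1 shares 61.5% of its exon bases, most of them with SARM1, which was under the filter at 0.650 against 0.448 FPKM. SLC19A1 shares 14.0% with COL18A1, MTHFD1 11.0% with ZBTB25 and the antisense transcripts AL122035.1 and AL122035.2, SHMT1 3.69% with SMCR8 and the microRNA gene MIR6778 on its own strand, and GART 3.55% with SON. Of these partners COL18A1, SON, SMCR8 and ZBTB25 did not pass. ATIC, FPGS and GGH share none. The processed pseudogenes TYMSP1 and TYMSP2 were at 0 in all libraries, and MTHFD1P1 and SHMT1P1 had at most 7 reads.

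The enzymes on either side of TYMS were tested as a list of 10 thymidylate supply and salvage genes, of which 5 were lower, 1 higher and 4 did not pass. Their median log2 fold change was -0.31. TK1, which phosphorylates thymidine in the salvage route, stood at 42.4, 44.6 and 42.3 FPKM against 60.4, 74.3 and 75.8 (log2 fold change -0.69, adjusted p 0.00111, limma). DTYMK, the next kinase after TYMS or TK1, fell by 0.64 on the log2 scale, and DUT, which makes dUMP from dUTP, by 0.42. UNG, which removes uracil from DNA, fell by 0.41. The nucleoside transporters went opposite ways: SLC29A1 was lower, 12.4 ± 0.829 against 18.7 ± 0.457 FPKM, and SLC29A2 higher, 31.4 ± 1.83 against 20.5 ± 0.872 FPKM.

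Among the 9 tested of 10 other purine synthesis genes, 5 were lower, none was higher and 4 did not pass, with a median log2 fold change of -0.27. The share lower was 55.6%, beside 23.1% over all genes tested. PRPS2, which makes the ribose phosphate that purines are built on, stood at 14.1, 13.9 and 14.3 FPKM against 26.9, 26.7 and 24.8, a log2 fold change of -0.89 (adjusted p 2.64e-05, limma). PAICS and PFAS, whose steps lie among or after those of GART and before those of ATIC, fell by 0.57 and 0.55. GMPS and IMPDH1, which lead from IMP to GMP, fell by 0.38 and 0.27. PPAT, the first committed step, differed by 0.11 on the log2 scale (adjusted p 0.111, limma) and was called higher under TPM scaling alone (0.14, adjusted p 0.0398). PRPS1, IMPDH2 and ADSS lay between -0.10 and 0.03 and did not pass.

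Of 22 other folate and one-carbon genes 15 were tested, with 4 lower, 5 higher and 6 not passing and a median log2 fold change of 0.11. The share lower, 26.7%, was near the 23.1% over all genes tested. The 5 of 15 that were higher stood beside 19.4% higher over all genes tested. ALDH1L1, which oxidises formyl-tetrahydrofolate, stood at 0.726, 0.792 and 0.699 FPKM against 1.33, 1.54 and 1.52 (log2 fold change -0.89, adjusted p 0.00489, limma). It reached the minimum of 1 FPKM only through BrM3-shNC, with a mean of 1.46 against 0.739 and 1.10 over all libraries. With no filter on low values its adjusted p was 0.00704 (limma). MTHFD1L, the mitochondrial formate producer, fell by 0.44, PSPH by 0.26 and DLD by 0.21. PSAT1, in the serine synthesis that feeds SHMT1, rose from 52.4, 51.1 and 52.7 FPKM in control to 77.1, 80.3 and 78.7 (log2 fold change 0.59, adjusted p 3.04e-05, limma). MTHFD2, which converts methylene-folate to formyl-folate in mitochondria, was higher by 0.31, MTR, which spends methyl-folate on methionine, by 0.31, and PHGDH by 0.19. SHMT2, the mitochondrial counterpart of SHMT1, differed by -0.12 on the log2 scale (adjusted p 0.0790, limma) and was called lower by voom and without BrM3-shNC replicate 1.

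**Figure D4:**
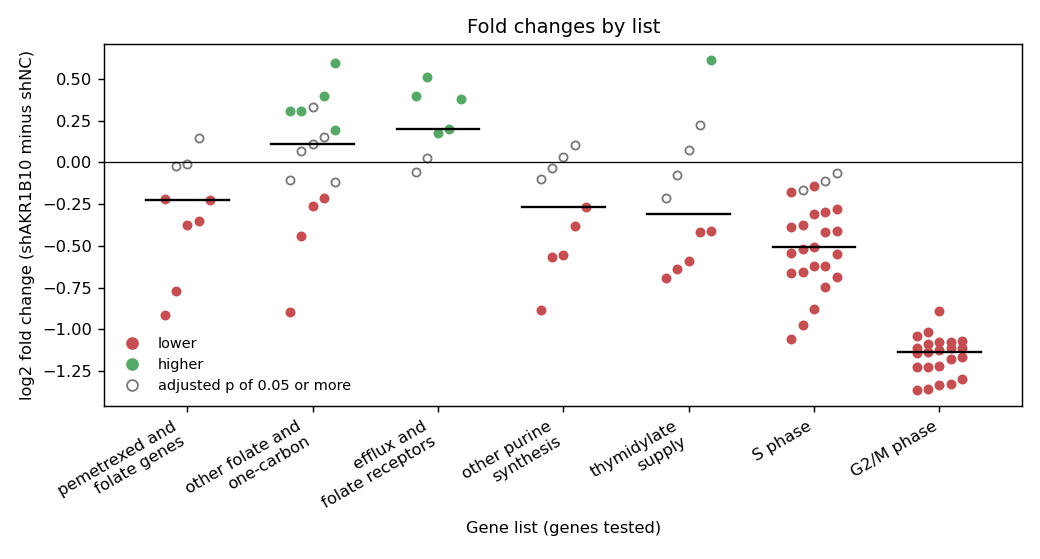
Log2 fold change of every gene tested in the 9 pemetrexed and folate genes and 6 related lists, 1 point per gene, red for lower, green for higher and open for an adjusted p of 0.05 or more, with a line at each median. The S phase and G2/M lists lie wholly below 0 with medians of -0.51 and -1.14, the efflux and receptor list lies mostly above 0, and the other folate genes fall on both sides.

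Pumps that carry antifolates out of the cell and the folate receptors that bring folates in by endocytosis made up the last list. Of 9 genes 7 were tested, and 5 pumps were higher, none of the list was lower and 2 did not pass, with a median log2 fold change of 0.20. Over all genes tested 19.4% were higher and 23.1% lower. Of the list only ABCC3 also met the study's fold limit. ABCC3 stood at 126, 124 and 124 FPKM against 87.7, 86.9 and 87.8 (log2 fold change 0.51, adjusted p 3.30e-05, limma). ABCC1 was higher by 0.40, 37.0 ± 0.0208 against 28.1 ± 0.305 FPKM, ABCG2 by 0.38 and ABCC5 by 0.20. ABCC2 was higher by 0.17 and lost the call without BrM3-shAKR1B10 replicate 1 or 3 (adjusted p 0.0635 and 0.0583, limma). ABCC4 (-0.06, adjusted p 0.335, limma) and FOLR1 (0.03, adjusted p 0.945, limma) did not pass. FOLR1 was low, 0.694 to 1.26 FPKM over the 6 libraries, and FOLR2 and FOLR3 were at or near 0.

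**Figure D5:**
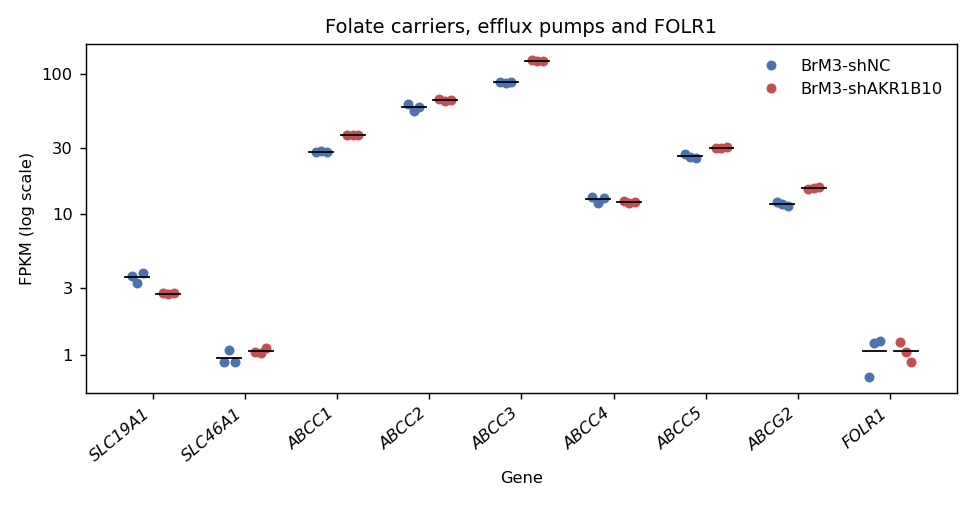
FPKM on a log scale in each of the 6 libraries for the carriers SLC19A1 and SLC46A1, the efflux pumps and FOLR1, coloured by group with a line at each mean. The 3 knockdown points lie above the 3 control points for ABCC1, ABCC2, ABCC3, ABCC5 and ABCG2, below them for SLC19A1, and overlap them for SLC46A1, ABCC4 and FOLR1.

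Genes of the cell cycle moved with the fall in TYMS. 22 of 25 S phase genes were lower and none higher, with a median log2 fold change of -0.51, and 23 of 23 G2/M genes were lower with a median of -1.14. These shares of 88% and 100% stood beside 23.1% lower over all genes tested. RRM2, a subunit of the enzyme that makes deoxyribonucleotides, stood at 10.1, 11.5 and 11.0 FPKM against 20.2, 19.7 and 20.3, and PCNA, the sliding clamp of DNA replication, at 176, 165 and 166 against 223, 232 and 220. Relative to the mean log2 level of the 25 S phase genes, TYMS was at -0.49, -0.65 and -0.63 in the knockdown libraries and -0.40, -0.05 and -0.05 in the controls. The difference of -0.43 had an exact two-sided permutation p of 0.10, the smallest possible, and BrM3-shNC replicate 1 lay nearer to the knockdown libraries than to the other controls. Of the 9 genes only TYMS and GGH had a log2 fold change below the S phase median, and ATIC and FPGS stood at -0.02 and -0.01. The part of the cell cycle in the falls of TYMS, GGH, GART, SLC19A1, MTHFD1 and SHMT1 was not tested.

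Across the 6 libraries the 5 genes whose profile lay closest to that of TYMS, by the root mean square difference of centred log2 values, were SH3BP1 (0.0521), UBE2S (0.0733), CENPM (0.0837), ALDH1L1 (0.0894) and PADI2 (0.0905). UBE2S, a ubiquitin-conjugating enzyme of mitotic exit, showed the same low value in BrM3-shNC replicate 1, with 158, 207 and 211 FPKM in the controls against 115, 101 and 114. Closest to FPGS were POR (0.0111), RNF220 (0.0125), ITGB1BP1 (0.0164), SLC38A10 (0.0167) and AGRN (0.0172), all with a log2 fold change between -0.03 and 0.00. These likenesses describe 6 libraries from 2 groups.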

How the data were processed

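RNA-seq was measured in 3 BrM3-shAKR1B10 and 3 BrM3-shNC libraries. Per the labels and the study's methods, the authors made poly(A) libraries from total RNA, aligned reads with HISAT2 2.0.5, counted them per gene with featureCounts 1.5.0-p3 and deposited FPKM computed from those counts and gene length. The build and the strand setting are not given in the sources used here. All 58735 gene positions equal those of GENCODE 29 (GRCh38).

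From the deposited FPKM, log2(FPKM + 0.1) of genes with a mean of at least 1 FPKM was fitted by limma 3.58.1 in R 4.3.3 (eBayes with trend), with Benjamini-Hochberg adjustment over all 13150 genes. Fold changes are on that scale, which understates the change of low genes. FPKM times length and library size gave whole reads for 100% of values (relative tolerance 0.0001), and voom on these reads was an alternative. Single ratios were compared by exact permutation in Python 3.11.15. The code was tested on simulated data.

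All lists, like the 9 genes, were chosen with earlier results of these data known. Named were the 9 genes, genes of the folate, efflux, purine and thymidylate lists past an adjusted p of 0.05 and an absolute log2 fold change of 0.5 (otherwise the 2 largest in a list), overlapping genes, pseudogenes, AKR1B10 and the 5 genes nearest to TYMS and FPGS in profile. Other named list genes were chosen after their values were seen, and some list genes enter the counts but are not reported here by name. Calls, counts and fold changes were recomputed with a pseudocount of 1 or 0.01, without the filter or with a minimum of 5 FPKM, with TPM or median-of-ratios scaling, voom, eBayes without trend, a replicate block, and leaving out each library. The 4 ratios were recomputed with the pseudocounts, the block and each library left out, and the profile likeness was not recomputed.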

Additional observations from a re-analysis of the deposited data

How the results depend on the processing

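The 6 genes called lower passed in every alternative run for them, with a highest adjusted p of 0.0472 for SHMT1 (limma). SLC19A1 could not be tested at a minimum mean of 5 FPKM, where the number lower was therefore 5. TYMS ranged from -1.03, without BrM3-shNC replicate 1, to -0.84 on the log2 scale and GGH from -0.87 to -0.67. ATIC turned to 0.014 under TPM scaling. FPGS turned to 0.030 under TPM scaling and 0.0094 under median-of-ratios scaling, and ranged from -0.053 to 0.027 when 1 library was left out; neither gene passed in any alternative. PPAT made the purine genes called higher 1 rather than 0 under TPM scaling. Scaling moved the median of all genes to between -0.01 and 0.03. Left-out libraries gave ranges of 19 to 21 S phase genes lower, 4 to 5 other folate genes lower, 4 higher where all libraries gave 5, and 4 to 5 pumps higher.

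Equal replicate numbers did not pair the libraries: deviations of same-numbered libraries correlated at -0.0155, 0.00388 and 0.00383. A fit with the numbers as a replicate block still called 6 of the 9 lower, and 2 met the fold limit, with adjusted p from 0.00538 (GGH) to 0.0461 (SHMT1). The block changed no call among the 9 genes; among the S phase genes it took the calls of CLSPN and E2F1 and added that of CDC6, and it left 4 other folate genes higher. 3 libraries a group set the precision, and at 3 reads a gene of 1000 bases stands at 0.163 to 0.177 FPKM, and among the 9 genes SLC46A1, on 127 to 155 reads, had the largest SE, 0.17. The limit of 3 reads covers counting error only.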

Other observations

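A pair of glycine and histidine breakdown genes that supply one-carbon units lay under the minimum of 1 FPKM and so outside the test. They were chosen after their values were seen. GLDC, a subunit of the mitochondrial glycine cleavage system, stood at 0.677, 0.731 and 0.871 FPKM in BrM3-shAKR1B10 and 0.189, 0.0860 and 0.110 in BrM3-shNC, on 13 to 138 reads. With no filter on low values its log2 fold change was 1.93 (adjusted p 0.00637, limma). FTCD, which passes the formimino group of histidine breakdown to folate, stood at 0.889, 0.820 and 0.988 FPKM against 0.214, 0.375 and 0.331, with a log2 fold change of 1.31 (adjusted p 0.0155, limma, no filter). AMT, a partner of GLDC in the cleavage system, had 3 to 15 reads in any library and GCSH, another, a log2 fold change of -0.11 (adjusted p 0.368, limma). ADSL, a purine enzyme, was at 0.321 against 0.240 FPKM, also under the minimum.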
